A study of Homo sapiens with 12 samples.

Results

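The genes described here are 39 genes of the extracellular matrix and of the enzymes that cross-link and cleave it: fibrillar and other collagens, basement membrane proteins, matrix glycoproteins and proteoglycans, lysyl oxidases, matrix metalloproteinases and tissue inhibitors of metalloproteinases (TIMPs). A gene was taken from every probe set that the array's annotation ties to that gene and no other, which gave 105 probe sets for 38 of the 39 genes, out of 19775 genes with such a probe set. No probe set of LAMA3, a laminin alpha chain, was found under this rule. RNA was read on Affymetrix expression arrays from HK-2 cells, an immortalized epithelial line from the human kidney's proximal tubule. There were 12 arrays, 3 biological replicates for each of 4 groups: vehicle control at 12 h, CsA at 12 h, vehicle control at 48 h and CsA at 48 h. CsA is taken to stand for cyclosporin A, an immunosuppressant given against transplant rejection that can injure the kidney. The labels used here state neither its dose nor which vehicle the controls received. All groups were grown in the same supplemented medium and treated 24 h after seeding, near confluence, and the series was made to look for expression signatures of nephrotoxic compounds. One cell line grown alone stands for the tubule in these data, and the arrays are a bulk measurement, so fewer cells of a kind and less RNA per cell cannot be told apart. Only RNA was measured.

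The basement membrane under a tubule cell is a sheet in which a network of type IV collagen and a network of laminin trimers are joined by nidogen and the proteoglycan perlecan. Fibrillar collagens I, III and V, fibronectin and small leucine-rich proteoglycans make up the interstitial matrix that accumulates when a kidney scars, which is a known lesion of long-term cyclosporin use. Lysyl oxidases cross-link collagen and elastin, matrix metalloproteinases cleave matrix proteins, and TIMPs block the metalloproteinases.

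Values are deposited log2 GCRMA values. A probe set was kept when it was above a log2 value of 4 on at least 3 arrays, each gene was represented by whichever kept probe set was brightest on average, and a gene was called when limma's Benjamini-Hochberg adjusted p over all 11154 genes tested was under 0.05. For each pair of groups the fit used the 6 arrays of those groups, and the difference between the CsA effects at 48 h and 12 h used all 12. Of the 38 genes with a probe set, 28 passed this filter and 10 did not. The median SD over all tested genes was 0.10 and 0.11 in control and CsA cells at 12 h and 0.15 and 0.20 at 48 h. Between 42.2% and 42.8% of probe sets lay above 4 on each array. Spiked control probe sets stood apart on 3 arrays: the hybridization controls had a median of 7.60 in CsA 48 h replicate 3 against 10.2 to 11.5 on the others, and the poly-A controls had 5.60 in CsA 48 h replicate 1 and 4.32 in control 48 h replicate 1 against 8.50 to 10.3. Their part in the results was not tested, and the 48 h differences are given below with and without these arrays.

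Of 17 proximal tubule and epithelial markers 8 passed the filter, among them KRT8, KRT18, EPCAM, PAX8, CDH2 and CDH6. CDH1 and the mature transporters and brush border markers LRP2, CUBN, SLC34A1, SLC5A2, ANPEP, GGT1 and AQP1 were above 4 on no array. Of 12 fibroblast, pericyte and mesangial markers, 4 passed the filter (PDGFRB, DCN, ACTA2 and TAGLN), while PDGFRA, THY1, POSTN and DES were above 4 on no array. The mean of those 4 was 6.80 to 7.00 in control and 6.86 to 7.01 in CsA cells at 12 h, and 6.94 to 7.32 and 7.04 to 7.36 at 48 h. That mean joins unlike levels. TAGLN was bright, with group means of 11.63 to 12.62, while PDGFRB had 4.55 to 5.14 and DCN 3.68 to 4.59. None of 7 endothelial markers passed. Of 6 podocyte markers SYNPO, PODXL and PTPRO passed, of 7 leukocyte markers CD74, and of 7 of the loop, distal tubule and collecting duct SLC12A1 and AQP2. Over time in control cells 5 of the 8 epithelial markers were called (limma), where 47.5% of all genes were called. KRT19 fell by 1.38, CDH6 by 0.59, KRT8 by 0.49 and KRT18 by 0.35, and EPCAM rose by 0.35. In CsA cells 4 of the 8 were called, where 45.8% of all genes were called. CDH6 fell by 1.84, CDH16 by 0.69 and KRT18 by 0.41, and PAX8 rose by 0.72, while SYNPO rose by 0.32. Over time in control cells ACTA2 rose by 1.68 (log2, SE 0.19, limma adjusted p = 0.000798) and TAGLN fell by 0.85 (SE 0.17, adjusted p = 0.00735), and CsA against control at 48 h gave -1.16 for CDH6 (SE 0.13, adjusted p = 0.0450) and 1.09 for PAX8 (SE 0.14, adjusted p = 0.0454), with -0.92 for CD74 (SE 0.52, adjusted p = 0.357). Whether these markers have a part in the matrix results was not tested.

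Before the values, 3 stretches of promoter are shown for the genes the comparisons turn on: LAMB3, whose difference between CsA and control was the most positive, LOX, whose rise over time was the largest among the bright genes, and the gap between COL4A1 and COL4A2, which are transcribed away from each other. They are RefSeq sequences of build GRCh38.p14. LAMB3 is the 250 bases before 1 of its 3 listed starts, chr1:209652426-209652675 on the minus strand. LOX is the 250 bases before 1 of its 3 listed starts, chr5:122078260-122078509 on the minus strand. The shared stretch, chr13:110307158-110307283 on the plus strand, is the 126 bases between the COL4A1 and COL4A2 starts. Capitals mark a CCAAT box (CCAAT) or a GC box (GGGCGG) found on either strand.
LAMB3: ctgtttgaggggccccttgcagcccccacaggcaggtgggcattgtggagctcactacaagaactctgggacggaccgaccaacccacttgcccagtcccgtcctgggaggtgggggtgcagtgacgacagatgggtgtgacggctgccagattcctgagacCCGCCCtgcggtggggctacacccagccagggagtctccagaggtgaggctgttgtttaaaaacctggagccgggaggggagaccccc
LOX: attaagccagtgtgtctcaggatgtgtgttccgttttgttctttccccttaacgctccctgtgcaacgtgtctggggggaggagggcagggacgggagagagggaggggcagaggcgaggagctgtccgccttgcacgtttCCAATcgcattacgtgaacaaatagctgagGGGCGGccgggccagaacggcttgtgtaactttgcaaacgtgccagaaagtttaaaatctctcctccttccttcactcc
COL4A1-COL4A2: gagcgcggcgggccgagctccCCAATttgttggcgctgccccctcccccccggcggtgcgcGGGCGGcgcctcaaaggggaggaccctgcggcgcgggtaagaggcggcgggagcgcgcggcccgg

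The LAMB3 stretch holds a GC box on the opposite strand, read as CCGCCC. The LOX stretch and the shared COL4A1-COL4A2 stretch each hold a CCAAT box and a GC box. Promoters were listed for 28 of the 39 genes, which are not the same 28 that passed the filter. A GC box lay in at least 1 listed window of 22 of them, a CCAAT box in 10, a TATA box (TATAAA) in 4 and an AP-1 motif (TGANTCA) in 3. Over all 35116 windows of the same length the shares were 42.6%, 32%, 10.7% and 6.57%. Genes can have several windows, so the counts by gene and the shares by window are not on 1 footing. A match describes the letters only. The 3 genes with an AP-1 motif were LAMA3, LAMB3 and MMP7, that of LAMB3 lying in a listed window other than the one printed.

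**Figure D1:**
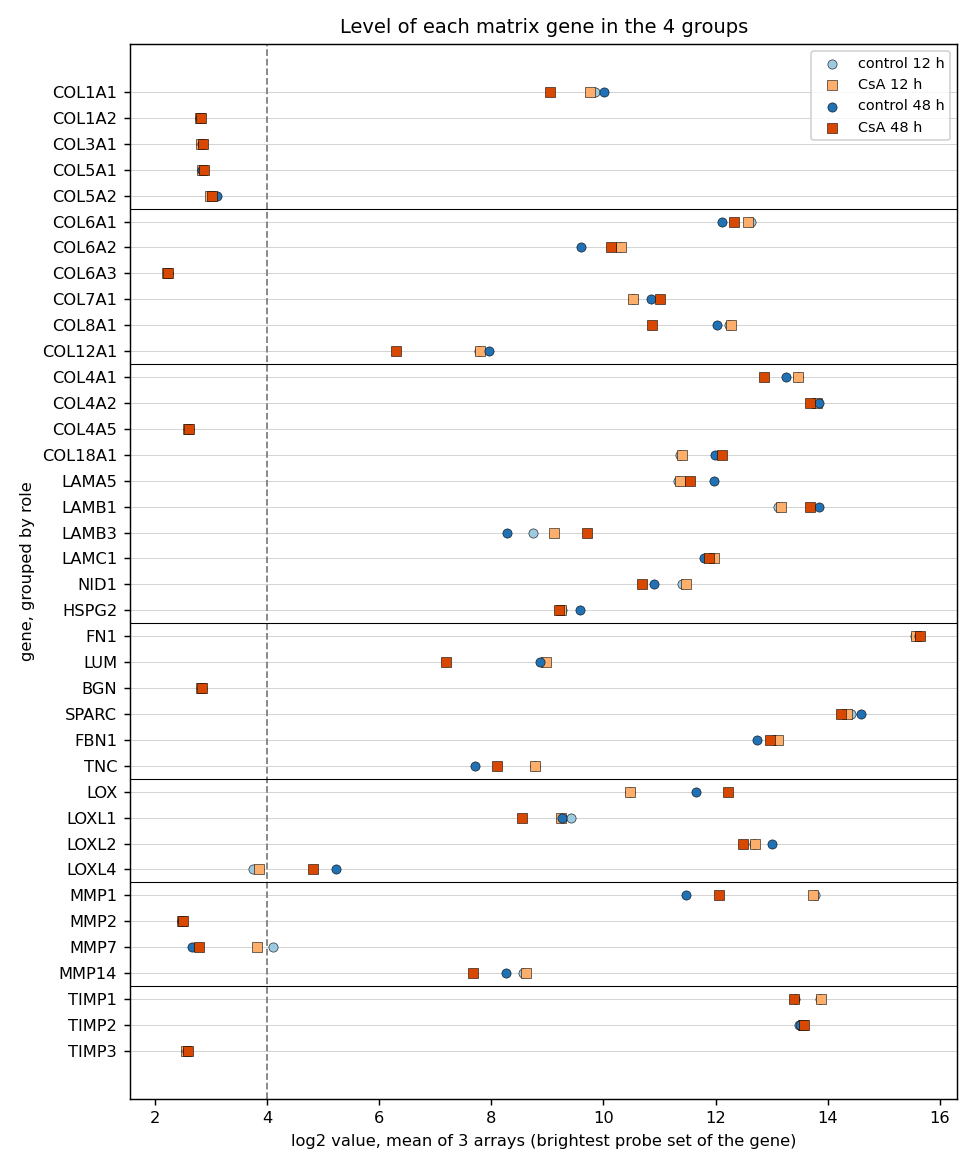
Mean log2 value of 3 arrays for each matrix gene in each group (brightest probe set of the gene, filtered or not; dashed line at 4; pale symbols 12 h, dark symbols 48 h, circles control, squares CsA). The fibrillar collagens other than COL1A1 lie left of the line in all groups, and the CsA 48 h square stands left of the other 3 symbols for COL1A1, COL8A1, COL12A1, LUM and LOXL2. Levels are to be compared within a gene, since probe sets differ in brightness.

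Most fibrillar collagen genes were not measurable above the filter in HK-2 cells, whereas most basement membrane genes were. Among the 5 fibrillar collagen genes COL1A1 alone passed the filter. The alpha-2 chain of type I collagen (COL1A2), the type III chain (COL3A1), both type V chains (COL5A1, COL5A2), the third type VI chain (COL6A3), the type IV chain COL4A5, biglycan (BGN), gelatinase A (MMP2) and TIMP3 were below 4 on every array: their 26 probe sets ranged from 1.75 to 3.67. Matrilysin (MMP7) was above 4 on 2 arrays, with 5.02 in control 12 h replicate 1 and 4.76 in CsA 12 h replicate 1. In contrast 9 of 11 basement membrane genes, all 4 lysyl oxidases, 5 of 6 other collagens and 5 of 6 glycoproteins and proteoglycans passed. So did 2 of 4 metalloproteinases and 2 of 3 TIMPs.

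The first comparison asks what CsA did within 12 h. No matrix gene was called (0 of 28, limma, lowest adjusted p = 0.546), against 0% of all genes tested. The differences ran from -0.18 to 0.37 on the log2 scale, with a median of 0.02 against -0.01 over all genes. LAMB3, the beta-3 chain of laminin-332, was the 1 gene with an unadjusted p under 0.05. Its values were 8.79, 8.67 and 8.76 in control cells and 9.17, 8.86 and 9.29 in CsA cells. The groups did not overlap, as was the case for 13% of all genes, and the difference was 0.37 (SE 0.12, adjusted p = 0.546). With the replicate number as a block, which these 12 h samples bear out, the adjusted p was 0.197. A fit of all 12 arrays also called 0 matrix genes, with 0.00897% of all genes called.

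At 48 h the differences between CsA and control were wider, with LAMB3 and both type VI collagen chains higher on every CsA array and COL1A1, COL8A1, COL12A1, COL4A1, LUM, SPARC and LOXL2 lower on every CsA array. None of the 28 genes was called in the fit of the 6 arrays (limma, lowest adjusted p = 0.0689, 8 with an unadjusted p under 0.05), where 1.1% of all genes were called. A fit of all 12 arrays in which the 12 h groups share in the estimate of the spread called 7: LAMB3 higher and COL1A1, COL8A1, COL12A1, LUM, SPARC and LOXL2 lower, where 16.1% of all genes were called. The shared fit draws part of its error from the less variable 12 h arrays, so adjusted p-values of both fits are given. The median difference of the 28 genes was -0.16 and that of all genes was -0.00497. It was -0.063 without CsA 48 h replicate 1, and -0.100 and -0.096 without control 48 h replicates 2 and 3. Groups that did not overlap were found for 29.7% of all genes, 13.9% higher and 15.8% lower, against 3 higher and 7 lower of the 28.

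LAMB3 had 8.53, 7.75 and 8.56 in control cells and 9.81, 9.19 and 10.13 in CsA cells at 48 h. All 3 CsA values were above all 3 control values, by a mean of 1.43 (2.69-fold, SE 0.31, limma adjusted p = 0.0788, and 0.00613 with all 12 arrays in 1 fit). The other laminin chains measured at 48 h overlapped between groups: LAMA5 (alpha-5) differed by -0.42 (SE 0.23), LAMB1 (beta-1) by -0.15 (SE 0.12) and LAMC1 (gamma-1) by 0.09 (SE 0.14). A second LAMB1 probe set, 211651_s_at, gave -0.25 with groups that did not overlap. COL4A1 had 13.12, 13.44 and 13.23 in control and 12.73, 13.12 and 12.72 in CsA cells, a difference of -0.41 (SE 0.15, adjusted p = 0.200). Its highest CsA value and its lowest control value both rounded to 13.12, so the separation is by less than the rounding. COL4A2, the partner chain in the same collagen trimer, differed by -0.17 (SE 0.18). Collagen XVIII (COL18A1, the source of endostatin), nidogen-1 (NID1) and perlecan (HSPG2) differed by 0.13, -0.22 and -0.37, each with overlapping groups.

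LUM encodes lumican, a small leucine-rich proteoglycan that binds collagen fibrils. It had 9.61, 8.49 and 8.49 in control cells and 7.25, 6.70 and 7.60 in CsA cells at 48 h. The CsA values lay below every control value, by a mean of 1.68 on the log2 scale or 3.21-fold (SE 0.37, limma adjusted p = 0.0788, and 0.0142 with all 12 arrays). COL12A1, a collagen that associates with fibrils, had 7.24, 8.77 and 7.87 in control and 5.15, 6.71 and 7.04 in CsA cells. Its difference of -1.66 had a wide error (SE 0.59, adjusted p = 0.175, and 0.0469 with all 12 arrays), and without CsA 48 h replicate 1 it was -1.09. Its second kept probe set, dim at a mean of 4.00, gave -0.44 (SE 0.33) with overlapping groups. COL8A1, a short-chain collagen, had 11.53, 12.61 and 11.96 in control and 10.27, 11.23 and 11.12 in CsA cells, a difference of -1.16 (SE 0.35, adjusted p = 0.137, and 0.0484 with all 12 arrays).

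COL1A1, the alpha-1 chain of type I collagen and the single fibrillar collagen gene that passed the filter, had 9.87, 10.26 and 9.90 in control and 8.70, 8.94 and 9.53 in CsA cells at 48 h. The groups did not overlap and differed by -0.95 (SE 0.24, limma adjusted p = 0.0951, and 0.0140 with all 12 arrays). Without CsA 48 h replicate 3 the difference was -1.19 (adjusted p = 0.0462), which is a call, in a fit that called 1.67% of all genes. Its 2 dimmer probe sets gave -1.04 and -0.61 with overlapping groups. SPARC, a collagen-binding matricellular protein, had 14.57, 14.59 and 14.60 in control and 14.19, 14.33 and 14.18 in CsA cells. The difference of this probe set was small but even across arrays, at -0.35 (SE 0.10, adjusted p = 0.113, and 0.0114 with all 12 arrays). The dimmer SPARC probe set gave -0.71. The collagen VI chains COL6A1 and COL6A2 differed by 0.23 (SE 0.12) and 0.54 (SE 0.24), each higher on all CsA arrays. Without CsA 48 h replicate 3 COL6A2 differed by 0.29, and without control 48 h replicate 2 COL6A1 differed by 0.14.

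**Figure D2:**
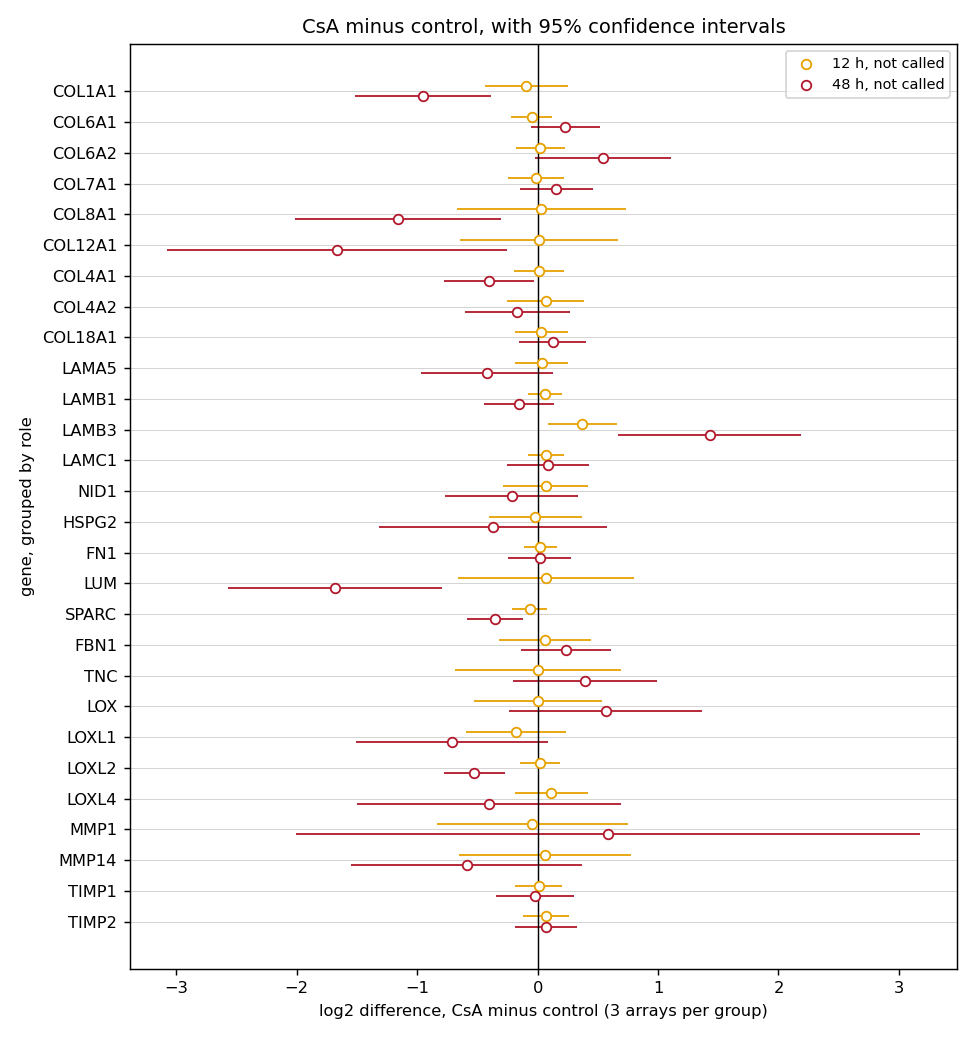
Log2 difference between CsA and control for the 28 tested matrix genes at 12 h (yellow) and 48 h (red), 3 arrays per group, with 95% confidence intervals from the limma fit of those 6 arrays; open circles mark genes that were not called, which is every gene here. The 12 h points run from -0.18 to 0.37, and at 48 h the spread and the intervals are wider, with LAMB3 at 1.43 and LUM at -1.68.

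Among the lysyl oxidases, LOXL2 had 12.90, 13.11 and 13.04 in control cells and 12.44, 12.56 and 12.47 in CsA cells at 48 h. These groups lay apart with little spread, and the difference was -0.53 (SE 0.11, limma adjusted p = 0.0689, and 0.00345 with all 12 arrays). A dimmer LOXL2 probe set gave -0.68 (SE 0.32) with overlapping groups. LOX differed by 0.57 (SE 0.33), LOXL1 by -0.71 (SE 0.33) and LOXL4 by -0.41 (SE 0.45), and each overlapped between groups. Of the proteases, interstitial collagenase (MMP1) had 12.70, 10.24 and 11.49 in control and 12.12, 10.02 and 14.03 in CsA cells. The spread within CsA cells leaves a difference of 0.58 with a 95% interval from -2.01 to 3.17. The membrane-bound MMP14 had 6.78 in CsA 48 h replicate 3 against 7.81 and 8.41 in the other CsA arrays, and differed by -0.59 (SE 0.40). The inhibitors TIMP1 and TIMP2 differed by -0.02 (95% interval -0.35 to 0.31) and 0.07 (-0.19 to 0.33).

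**Figure D3:**
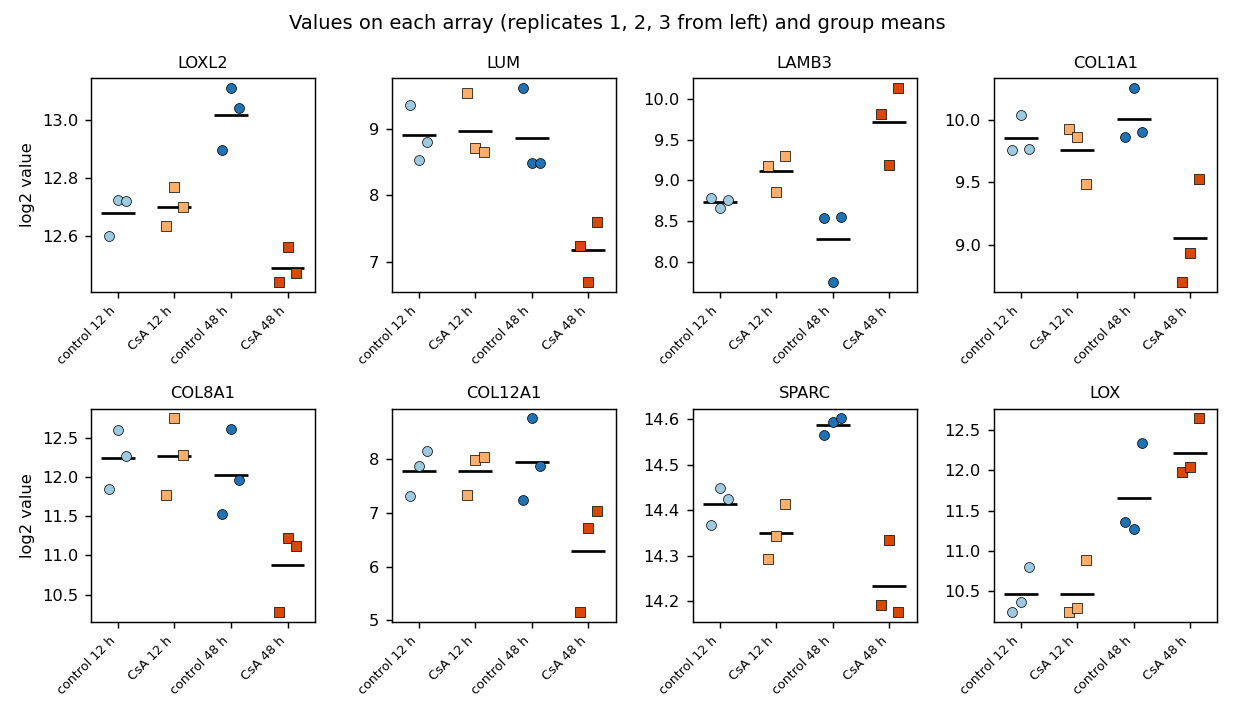
Log2 value on each of the 12 arrays for 8 matrix genes (points, replicates 1 to 3 from left; bars, group means; each panel has its own axis that does not start at 0). CsA 48 h values lie apart from control 48 h values in every panel but LOX, whose control 48 h replicate 3 reaches 12.35 among CsA values of 11.98 to 12.65.

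The 7 genes that the shared fit called were also compared at 48 h without the arrays whose spiked controls stood apart. Without replicate 1 of both groups the differences were 1.51 for LAMB3, -1.34 for LUM, -1.44 for COL12A1, -1.11 for COL8A1, -0.85 for COL1A1, -0.56 for LOXL2 and -0.34 for SPARC. Without CsA 48 h replicate 3 they were 1.22, -1.89, -2.03, -1.28, -1.19, -0.52 and -0.32 in the same order of genes. The 48 h groups of these 7 did not overlap, so leaving out arrays could change the size of a difference but not its sign. Of the other genes FN1 went from 0.02 to -0.0092 without replicate 1, and MMP1 from 0.58 to -0.40 and TIMP1 from -0.02 to 0.11 without CsA 48 h replicate 3.

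Probe sets of 1 gene did not always give 1 answer at 48 h. The 4 brightest probe sets of FN1, the gene of the adhesive glycoprotein fibronectin, differed by 0.00 to 0.05 between CsA and control. For the brightest the 95% interval was -0.24 to 0.28. The dimmer probe set 214702_at had 8.28, 7.24 and 8.36 in control and 9.93, 9.13 and 9.56 in CsA cells, a difference of 1.58 (SE 0.36, limma adjusted p = 0.110 over all probe sets). A still dimmer one, 1558199_at, had 5.52, 6.02 and 6.30 in control and 7.41, 7.07 and 6.96 in CsA cells, a difference of 1.20 (SE 0.23, adjusted p = 0.0884). Neither overlapped between groups, and neither was called in that fit, where 0.0388% of all probe sets were.

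TIMP2 was split likewise, with 0.07 and 0.11 for its brighter probe sets and 0.98 (SE 0.26, limma adjusted p = 0.136) for 203167_at, whose CsA values of 10.11, 9.78 and 10.76 lay above control values of 9.25, 9.08 and 9.40. For MMP14 the 4 probe sets ranged from -0.29 to -1.58. For COL6A2 the dimmer probe set 213290_at gave 0.74 (SE 0.14, adjusted p = 0.0864) beside 0.54 for the brighter. Which transcripts each probe set reads was not examined.

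**Figure D4:**
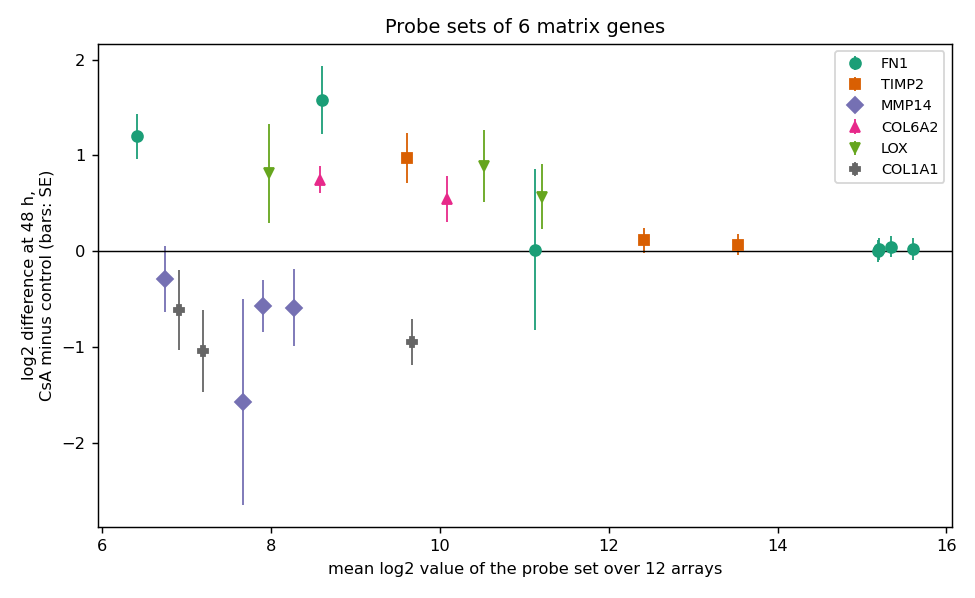
Log2 difference between CsA and control at 48 h (points, with SE bars) against the mean log2 value of the probe set over 12 arrays, for all kept probe sets of 6 matrix genes. The FN1 probe sets above 15 lie at 0 while those at 8.61 and 6.41 lie at 1.58 and 1.20, and the TIMP2 probe set at 9.61 lies above its brighter partners.

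The second question of the design is what the longer culture time changed. In control cells 13 of 28 matrix genes were called, 7 higher and 6 lower at 48 h than at 12 h, where 47.5% of all genes were called (25.2% higher and 22.2% lower). LAMB1, COL18A1, LAMA5, LOX, LOXL2, LOXL4 (from below the filter value) and COL7A1 rose, and MMP1, TNC, COL6A1, COL6A2, NID1 and TIMP1 fell. The count is close to the background, so it says nothing particular to matrix genes. In CsA cells 10 of 28 were called, 4 higher (COL7A1, COL18A1, LAMB1 and LOX) and 6 lower (COL8A1, COL4A1, NID1, LUM, LOXL1 and TIMP1), where 45.8% of all genes were called (23.6% higher and 22.2% lower). The 2 lists shared 6 genes, all in the same direction, which is 6 of the 13, 6 of the 10 and 21.4% of the 28. Of all genes tested 33.8% were called in both in the same direction. The 2 comparisons share no arrays, but same-numbered CsA and control samples deviated together at 12 h, so the comparisons are not independent. The median change was -0.01 in control cells and -0.16 in CsA cells, against 0.03 over all genes in each.

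Basement membrane genes moved in both directions over time. LAMB1 had 13.09, 13.12 and 13.12 in control cells at 12 h and 13.80, 13.83 and 13.88 at 48 h, and it rose by 0.73 (SE 0.07, limma adjusted p = 0.000379). In CsA cells it went from 13.17, 13.24 and 13.12 to 13.52, 13.66 and 13.87 and rose by 0.51 (SE 0.11, adjusted p = 0.0130). The 12 h and 48 h values of LAMB1 did not overlap under either treatment, which was common over time. Of all 11154 genes, 3545 were higher and 3169 lower at 48 h without overlap in control cells, and 3740 and 3107 in CsA cells. COL18A1 was 11.40, 11.49 and 11.21 in control cells at 12 h and 11.94, 12.11 and 11.92 at 48 h, a rise of 0.62 (SE 0.10, adjusted p = 0.00353). Its CsA values went from 11.40, 11.47 and 11.32 to 12.06, 12.26 and 12.03, a rise of 0.72 (SE 0.10, adjusted p = 0.00256). Both genes were thus higher at 48 h whatever the treatment. LAMA5 rose in control cells from 11.20, 11.32 and 11.47 to 11.67, 12.37 and 11.88, by 0.64 (SE 0.19, adjusted p = 0.0306), and its change in CsA cells was 0.19 (SE 0.16).

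NID1, the linker between the laminin and collagen IV networks, fell under both treatments. Its values were 11.32, 11.21 and 11.68 in control cells at 12 h and 10.93, 10.71 and 11.08 at 48 h, a change of -0.50 (SE 0.16, limma adjusted p = 0.0390). In CsA cells they went from 11.45, 11.32 and 11.64 to 10.37, 10.52 and 11.17, a change of -0.78 (SE 0.22, adjusted p = 0.0312). COL4A1 fell in CsA cells from 13.35, 13.51 and 13.57 to 12.73, 13.12 and 12.72, by 0.62 (SE 0.14, adjusted p = 0.0134), and its change in control cells was -0.20 (SE 0.11). COL4A2, which starts across the 126 bases printed above, changed by -0.13 (SE 0.16) in CsA cells and 0.10 (SE 0.16) in control cells. The difference between the chains was not tested. LAMB3, with -0.46 in control and 0.60 in CsA cells, and LAMC1 and HSPG2 were not called over time.

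**Figure D5:**
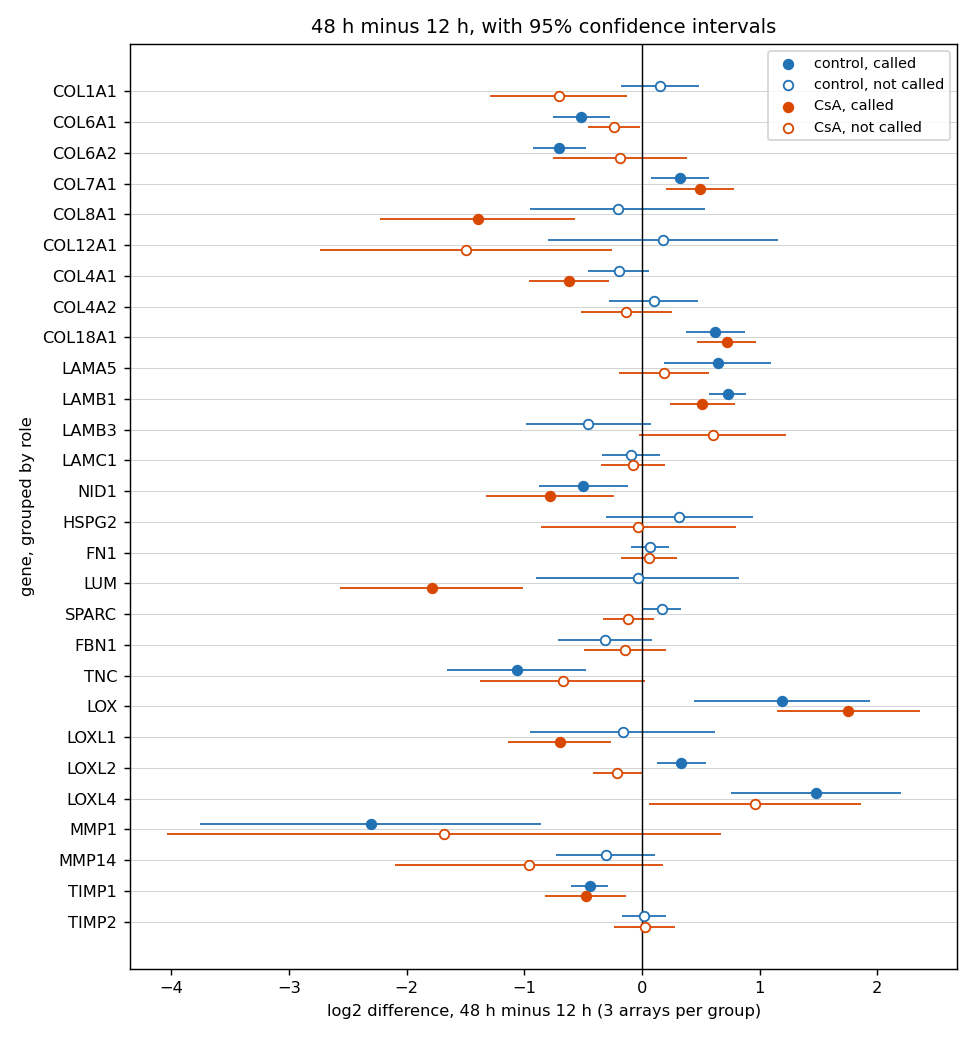
Log2 difference between 48 h and 12 h for the 28 tested matrix genes in control (blue) and CsA (orange) cells, 3 arrays per group, with 95% confidence intervals; filled points were called (adjusted p under 0.05), open points were not. LOX and COL18A1 lie right of 0 and TIMP1 and NID1 left of 0 in both, while COL8A1, LUM and LOXL1 are filled for CsA and open for control cells.

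Of the other collagens, both measured type VI chains fell in control cells. COL6A1 went from 12.62, 12.58 and 12.66 at 12 h to 12.12, 11.94 and 12.27 at 48 h, by -0.52 (SE 0.10, limma adjusted p = 0.00672), and COL6A2 from 10.32, 10.26 and 10.31 to 9.75, 9.47 and 9.55, by -0.70 (SE 0.09, adjusted p = 0.00146). In CsA cells their changes were -0.24 (SE 0.09, adjusted p = 0.0760) and -0.18 (SE 0.23). The dimmer COL6A2 probe set 213290_at rose by 0.52 in CsA cells (SE 0.14, adjusted p = 0.0323 over all probe sets, of which 39.6% were called), the opposite sign to the brighter one. COL7A1, the anchoring fibril collagen, had 10.51, 10.60 and 10.49 in control cells at 12 h and 10.69, 10.85 and 11.03 at 48 h, a rise of 0.32 (SE 0.10, adjusted p = 0.0416). With the replicate number as a block, that call was lost (adjusted p = 0.0515). Its CsA values were 10.47, 10.70 and 10.38 at 12 h and 11.07, 11.08 and 10.89 at 48 h, a rise of 0.49 (SE 0.12, adjusted p = 0.0167). COL8A1 fell in CsA cells from 11.77, 12.75 and 12.29 to 10.27, 11.23 and 11.12, by 1.40 (SE 0.34, adjusted p = 0.0180), and changed by -0.21 (SE 0.31) in control cells. COL12A1 changed by -1.49 in CsA cells (SE 0.51, adjusted p = 0.0543), just outside the threshold. Its second probe set gave -0.08 there (SE 0.30). The fibrillar collagen gene COL1A1 was also just outside, at -0.71 in CsA cells (limma adjusted p = 0.0526), and changed by 0.15 in control cells. Its 3 kept probe sets ran from -0.97 to -0.71 in CsA cells, and none was called.

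Among the glycoproteins and proteoglycans, LUM had 9.54, 8.71 and 8.66 in CsA cells at 12 h and 7.25, 6.70 and 7.60 at 48 h. It fell by 1.79 on the log2 scale or 3.45-fold (SE 0.32, limma adjusted p = 0.00583), and its change in control cells was -0.04 (SE 0.36). TNC, tenascin-C, a glycoprotein of remodelled matrix, had 9.24, 8.64 and 8.43 in control cells at 12 h and 8.03, 7.66 and 7.43 at 48 h, a fall of 1.06 (SE 0.24, adjusted p = 0.0128). In CsA cells, with 7.94, 7.80 and 8.57 at 48 h, it changed by -0.67 (SE 0.29, adjusted p = 0.104). The 48 h TNC values of both treatments overlapped. Fibrillin-1 (FBN1) changed by -0.32 (SE 0.17, adjusted p = 0.159) in control cells and was called there with the replicate number as a block (adjusted p = 0.0499). FN1 and SPARC changed by 0.07 and 0.17 in control and by 0.06 and -0.12 in CsA cells, by their brightest probe sets. The 7 kept FN1 probe sets ran from -0.32 to 0.92 in CsA cells, and 1 was called, where 39.6% of all probe sets were. The dimmer SPARC probe set rose by 0.43 in control cells and was called over all probe sets. With averaged probe sets SPARC was called there as well, where 45.8% of all genes were called.

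LOX, the founding lysyl oxidase, had the largest rise among the bright genes. It had 10.24, 10.36 and 10.80 in control cells at 12 h and 11.36, 11.27 and 12.35 at 48 h, a rise of 1.19 or 2.28-fold (SE 0.31, limma adjusted p = 0.0209). In CsA cells it went from 10.24, 10.29 and 10.88 to 11.98, 12.04 and 12.65, a rise of 1.75 or 3.37-fold (SE 0.25, adjusted p = 0.00263). Replicate 3 was highest in each of the 4 groups. LOXL4 had 3.71, 3.93 and 3.59 in control cells at 12 h and 4.64, 5.16 and 5.87 at 48 h, a rise of 1.48 (SE 0.30, adjusted p = 0.00770) that starts below the filter value of 4. It passed the filter only through arrays of other groups, control 48 h among them, so the filter favoured a rise. LOXL2 rose in control cells from 12.60, 12.72 and 12.72 to 12.90, 13.11 and 13.04, by 0.34 (SE 0.09, adjusted p = 0.0203), and changed by -0.21 (SE 0.09, adjusted p = 0.0896) in CsA cells. The rise rests on this probe set: the dimmer one changed by -0.03 in control and -0.51 in CsA cells. With averaged probe sets the control call was lost. LOXL1 fell in CsA cells from 8.97, 9.49 and 9.25 to 8.37, 8.82 and 8.43, by 0.70 (SE 0.18, adjusted p = 0.0219), and changed by -0.16 (SE 0.33) in control cells.

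MMP1 had the largest fall in control cells. Its control values were 14.24, 13.33 and 13.77 at 12 h and 12.70, 10.24 and 11.49 at 48 h, a fall of 2.30 on the log2 scale or 4.94-fold (SE 0.60, limma adjusted p = 0.0206). Replicate 1 was highest and replicate 2 lowest at both times. In CsA cells the mean change was -1.68 with an SE of 0.97 (adjusted p = 0.202), from 14.29, 13.22 and 13.71 at 12 h to 12.12, 10.02 and 14.03 at 48 h. The 48 h value of replicate 3 lay among the 12 h values. TIMP1, an inhibitor of most secreted metalloproteinases, had 13.85, 13.84 and 13.92 in control cells at 12 h and 13.42, 13.41 and 13.44 at 48 h, a fall of 0.45 (SE 0.07, adjusted p = 0.00239). In CsA cells it went from 13.78, 13.84 and 14.03 to 13.59, 13.47 and 13.15, a fall of 0.48 (SE 0.14, adjusted p = 0.0349). By their brightest probe sets TIMP2 changed by 0.02 under both treatments and MMP14 by -0.31 in control and -0.96 in CsA cells, with no call. The 3 TIMP2 probe sets ran from -0.23 to 0.02 in control and -0.02 to 0.71 in CsA cells. The 4 of MMP14 ran from -0.80 to -0.22 and from -2.15 to -0.87, and none of these was called.

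Time calls differed in how they held when 1 array was left out. In control cells the calls of COL18A1, COL6A1, COL6A2, LAMB1, LOXL4, TIMP1 and TNC held in each of 6 fits that left out 1 array, while COL7A1 was lost in 5, LAMA5, LOXL2 and NID1 in 4, MMP1 in 3 and LOX in 2. LOXL4 was below 4 on all control 12 h arrays and was in these fits only through its values in other groups. The differences kept their sign in these fits, for example 0.29 to 0.40 for LOXL2. Without control 12 h replicate 1 the count was 7, where 37.1% of all genes were called, and without control 12 h replicate 3 it was 8, where 36.1% were. In CsA cells COL18A1, LUM and LOX held in all 6, while NID1 was lost in 5, TIMP1 in 4, COL7A1 and LOXL1 in 3, COL4A1 and COL8A1 in 2 and LAMB1 in 1. Without CsA 12 h replicate 2 the count was 5, where 33.4% of all genes were called, and without CsA 12 h replicate 3 it was 3, where 33.1% were. Without CsA 48 h replicate 3, the array with low hybridization controls, the count was 15, adding COL1A1, COL12A1, COL6A2, MMP1 and TNC, all lower at 48 h, where 54.1% of all genes were called.

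Whether the CsA effect itself differed between 12 h and 48 h was tested on all 12 arrays, and 0 of 28 genes were called (limma, 8 with an unadjusted p under 0.05), where 1.12% of all genes were. LOXL2 was nearest, at -0.55 (SE 0.12, adjusted p = 0.0549), followed by LUM at -1.75 (SE 0.52, adjusted p = 0.130), COL1A1 at -0.86 (SE 0.29, adjusted p = 0.173), LAMB3 at 1.06 (SE 0.36, adjusted p = 0.175) and SPARC at -0.29 (SE 0.10, adjusted p = 0.188). The same test compares the time courses of control and CsA cells. A gene called over time under 1 treatment, such as LUM, COL8A1 or MMP1, is therefore not shown to differ between treatments by this fit. With the replicate number as a block the test called 3.55% of all genes. Among them were COL8A1, LUM and LOXL2 (negative) and LAMB3 (positive), with limma adjusted p of 0.0102, 0.0295, 0.0212 and 0.0393. The CsA 48 h samples do not bear out this block. Their deviations correlated with those of same-numbered 48 h controls by 0.0963, 0.300 and -0.0506.

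Other genes of matrix biology were followed in 4 lists: collagen folding and processing, other matrix proteins, other proteases and inhibitors, and matrix receptors. Of their 127 genes 82 were tested. CsA against control at 48 h called 2 of them, or 2.44%, where 1.1% of all genes were called, most of them lower as well (92 of 123). The 2 were RECK, a membrane-anchored inhibitor of metalloproteinases, at -1.01 (SE 0.14, limma adjusted p = 0.0454), and ITGB5, an integrin beta chain that pairs with alpha-V, at -0.69 (SE 0.10, adjusted p = 0.0462), both lower. At 12 h 0 were called. Over time 12 rose and 25 fell in control cells, and 12 rose and 27 fell in CsA cells. The shares called in either direction, 45.1% and 47.6%, lie by the backgrounds of 47.5% and 45.8%. By direction they do not, since falls outnumbered rises in the lists. Over all genes 25.2% rose and 22.2% fell in control cells, and 23.6% rose and 22.2% fell in CsA cells. This split was not tested.

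In the folding and processing list TGM2, a cross-linking transglutaminase, fell by 2.47 in control and 2.05 in CsA cells (SE 0.37 and 0.28). PCOLCE2, an enhancer of procollagen C-proteinase, fell by 1.26 and 2.27 (SE 0.15 and 0.14). P4HB, a subunit of prolyl 4-hydroxylase, rose by 0.55 in control cells (SE 0.09) and the catalytic subunit P4HA2 by 1.10 in CsA cells (SE 0.15). The prolyl 3-hydroxylase P3H2 fell by 1.83 in CsA cells (SE 0.36), and the chaperone FKBP10, dim at a mean of 4.29, rose by 0.98 in control cells (SE 0.31). Among other matrix proteins THBS1, thrombospondin-1, fell by 1.39 in control and 2.42 in CsA cells (SE 0.30 and 0.41). VCAN, the proteoglycan versican, fell by 2.37, ECM1 by 1.67 and LTBP2 by 1.49 in CsA cells (SE 0.18, 0.27 and 0.36). LAMB2, the laminin beta-2 chain, and COL16A1 rose by 1.16 and 1.13 in control cells (SE 0.18 and 0.19), where TGFBI fell by 1.07 (SE 0.29).

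Of the proteases PLAT, tissue plasminogen activator, fell by 3.79 in control and 3.51 in CsA cells (SE 0.13 and 0.25), and ADAM19 fell by 1.40 in each (SE 0.09 and 0.23). PLAUR, the urokinase receptor, fell by 1.31 in control cells (SE 0.26) and ADAMTS9 by 1.39 in CsA cells (SE 0.21). RECK fell by 1.22 in control and 2.13 in CsA cells (SE 0.18 and 0.13). Among receptors CD44, which binds hyaluronan, ITGA6, ITGA5 and ITGB3 fell in control cells by 1.29, 1.07, 0.74 and 0.71 (SE 0.23, 0.10, 0.14 and 0.17). In CsA cells ITGB8 fell by 3.14 (SE 0.35), ITGA6 by 0.93 (SE 0.20) and CD151 by 0.84 (SE 0.12), and ITGA3 rose by 1.01 (SE 0.10). Each change in these lists named as a rise or fall had a limma adjusted p under 0.05. None of the 82 genes was called for a difference between the CsA effects at 48 h and 12 h.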

How the data were processed

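Expression was measured on 12 Affymetrix arrays of HK-2 cells. The authors deposited log2 values made with GCRMA, per the submitters' processing notes; no version or settings are given in the sources used here. GCRMA subtracts a background estimated from probe sequence and forces arrays to 1 distribution, so dim probe sets are compressed near 2 to 3 and a shift common to most genes would not be seen. The members, lists and main fits were chosen with earlier results of these data known.

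Of 54675 probe sets, 41097 were annotated to 1 gene, 1801 to several and 11777 to none, and 41043 were matched by gene ID to RefSeq symbols. Tests used limma 3.58.1 in R 4.3.3 (lmFit and eBayes, two-sided, Benjamini-Hochberg over 11154 genes), checked on simulated data. Each pair of groups was fitted on its own 6 arrays, since the spread was wider at 48 h. All members with a probe set are named, and up to 4 called genes per other list and comparison, by size of change. Arrays are given for members called in any comparison. Also given are arrays of COL1A1, COL12A1, SPARC and LAMB3, of dimmer FN1 and TIMP2 probe sets, and some of MMP14 and MMP7. These additions were made after the values were seen. Of 66 pairs of arrays 0 were identical. The labels call replicates biological without naming separate cultures, so p-values measure the spread between these samples, and 3 arrays per group limit the precision.

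Same-numbered samples deviated together in CsA and control at 12 h (correlations of 0.550, 0.577 and 0.467) and in controls at 48 h and 12 h (0.291, 0.278 and 0.325), which bears out the replicate number as a block there. At 48 h CsA and control gave 0.0963, 0.300 and -0.0506, and CsA at 48 h and 12 h gave 0.222, 0.0461 and -0.00583, which does not. Alternatives were 1 fit of all 12 arrays, the block, other filters and probe set rules, trend and robust priors, median centring and leaving out arrays. No scan date or slide was used.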

Additional observations from a re-analysis of the deposited data

How the results depend on the processing

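For CsA against control at 48 h the count of matrix genes called was 0 in the fit of 6 arrays, 7 with all 12 arrays in 1 fit and 2 with trend and robust priors (LOXL2, adjusted p = 0.0407, and SPARC, adjusted p = 0.0473, where 2.78% of all genes were called). The all-array fit pools the smaller spread at 12 h into the 48 h test. Leaving out 1 array gave 0 to 1, the 1 being COL1A1 without CsA 48 h replicate 3, and leaving out replicate 1 of both 48 h groups gave 0. The median difference became 0.0078 without the filter on low values, which adds the 10 genes near the floor. Over time, leaving out 1 array gave 7 to 13 calls in control cells and 3 to 15 in CsA cells. The median in CsA cells was -0.053 without the filter and -0.27 when a gene's probe sets were averaged, and -0.246 to -0.0928 when 1 array was left out. For the difference between CsA effects the count was 4 with the replicate block, 1 with averaged probe sets (COL1A1), 1 with trend and robust priors (LOXL2) and 0 to 2 when 1 array was left out, and the median was 0.0028 without the filter. The replicate block gave 13 calls over time in control cells, 12 of them shared with the fit without it. At 48 h between CsA and control it left the count at 0, with a lowest adjusted p of 0.0540 for LAMB3. Except where a fit's construction is named, the cause was not tested. Of 2347 values of single genes under an alternative, 2127 kept direction and side of the threshold, 68 lost a call and 51 gained one. The other 101 changed sign while called under neither setting. Under these alternatives no called gene changed sign. They did not set the probe sets of a gene against each other, and those of COL6A2 had opposite signs over time in CsA cells. The other counts stayed within 1.5 times the value reported. The other medians moved by less than 1 SD between replicates, although leaving out 1 array took the median at 48 h from -0.186 to -0.063 and that of the difference between CsA effects from -0.257 to -0.123.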
